A study of Mus musculus with 6 samples.

Results

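The genes described here are *Pla2g4a*, *Ptgs1*, *Ptgs2*, *Ptges*, *Ptgis*, *Ptgds*, *Alox5ap*, *Alox5*, *Ltc4s* and *Ptger4*, which encode enzymes of prostaglandin and leukotriene synthesis and 1 receptor for prostaglandin E2. These 10 genes were taken by symbol from the 56748 genes of the deposited count table. RNA had been sequenced from 6 cultures labelled as primary osteocytes of mouse long bones, 3 labelled WT and 3 labelled cKO. The study's methods give C57BL/6 mice of 7 weeks as the source of osteocytes, and the cKO mice carried *Gsdmd* fl/fl and DMP1-Cre. Cre is driven there by the *Dmp1* promoter, so cells that never used this promoter keep *Gsdmd*. All 6 cultures had been kept for 7 days and stimulated, first with LPS (10 ng/mL, 3 h) and then with aluminum hydroxide (20 µg/mL, 3 h). Unstimulated cultures were not analysed here, and the comparisons are therefore between stimulated cultures only. The labels do not say that the cultures of a group came from separate mice. The p-values therefore set each group difference against the spread between these samples only, and that spread may be technical.

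Prostaglandins and leukotrienes are short-lived lipid signals made from arachidonic acid. A phospholipase frees the acid from membranes, and the cyclooxygenases turn it into prostaglandin H2, from which each terminal synthase makes its own product. In the other arm, 5-lipoxygenase and its activating protein start leukotriene synthesis, which is best known from myeloid cells. In bone, prostaglandin E2 is a classical product of osteoblasts and osteocytes, released on loading and in inflammation.

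Levels are given as CPM, the counts of a gene per 1000000 counts of its library after scaling by TMM. The library totals lay between 39566835 and 49734046 counts. *Gsdmd*, the gene targeted in cKO, was at 13.5, 14.1 and 14.1 CPM in WT and at 21.0, 23.6 and 23.0 CPM in the libraries labelled cKO, which goes against the label. The count covers the whole gene and does not single out the floxed exons, and every direction below rests on the label. *Xist* was at 0 to 0.0889 CPM in WT and at 1127 to 1159 CPM in the libraries labelled cKO, and the Y-linked *Ddx3y* was at 103.9 to 109.9 CPM in WT and at 0 in the others, so sex and genotype cannot be told apart. Of 7 osteocyte markers, 5 had too few counts to be tested, with 0 counts of *Sost* in every library, at most 2 of *Mepe*, 6 of *Dmp1*, 22 of *Phex* and 34 of *Fgf23*. The other 2 were well detected, *Pdpn* at 188.9 to 240.4 CPM and *Fam20c* at 70.2 to 104.8 CPM. They made up nearly all of the list's sum of 302.5 to 315.1 CPM in WT and 289 to 299.8 CPM in the libraries labelled cKO. *Pdpn* was lower in the libraries labelled cKO, with a log2 fold change of -0.28 (edgeR adjusted p = 2.99e-05). *Fam20c* was higher there, at 0.45 (edgeR adjusted p = 1.31e-06). Of a list of 16 macrophage markers, 15 could be tested and all 15 were higher in the libraries labelled cKO, and the list summed to 1218 to 1372 CPM in WT and 6555 to 6882 CPM in the others. In bulk RNA, fewer cells of a type and less RNA per cell cannot be told apart.

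Of the 10 genes, 9 had enough counts to be tested with edgeR, and 7 of them passed at an adjusted p below 0.05. *Ptges*, *Ptgis*, *Alox5ap*, *Alox5* and *Ptger4* were higher in the libraries labelled cKO, whereas both cyclooxygenase genes were lower. *Pla2g4a* and *Ltc4s* did not pass, and *Ptgds* had 0 counts in every library, at most 3 counts per library being taken as the floor. Among all 17146 genes tested, 39.3% passed, 20.1% as higher and 19.2% as lower. The median log2 fold change was 0.39 over the 9 genes and 0.008 over all genes tested. A log2 fold change of at least 1 in size as well left 3 of the 9 genes, *Alox5ap* and *Alox5* as higher and *Ptgs1* as lower, against 11.2% of all genes tested, 6.56% higher and 4.64% lower. The libraries of the groups did not overlap in 7 of the 9 genes, against 49.2% of all genes tested. With upper-quartile scaling, the 3445 higher and 3285 lower genes of the table became 2799 higher and 4294 lower.

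**Figure D1:**
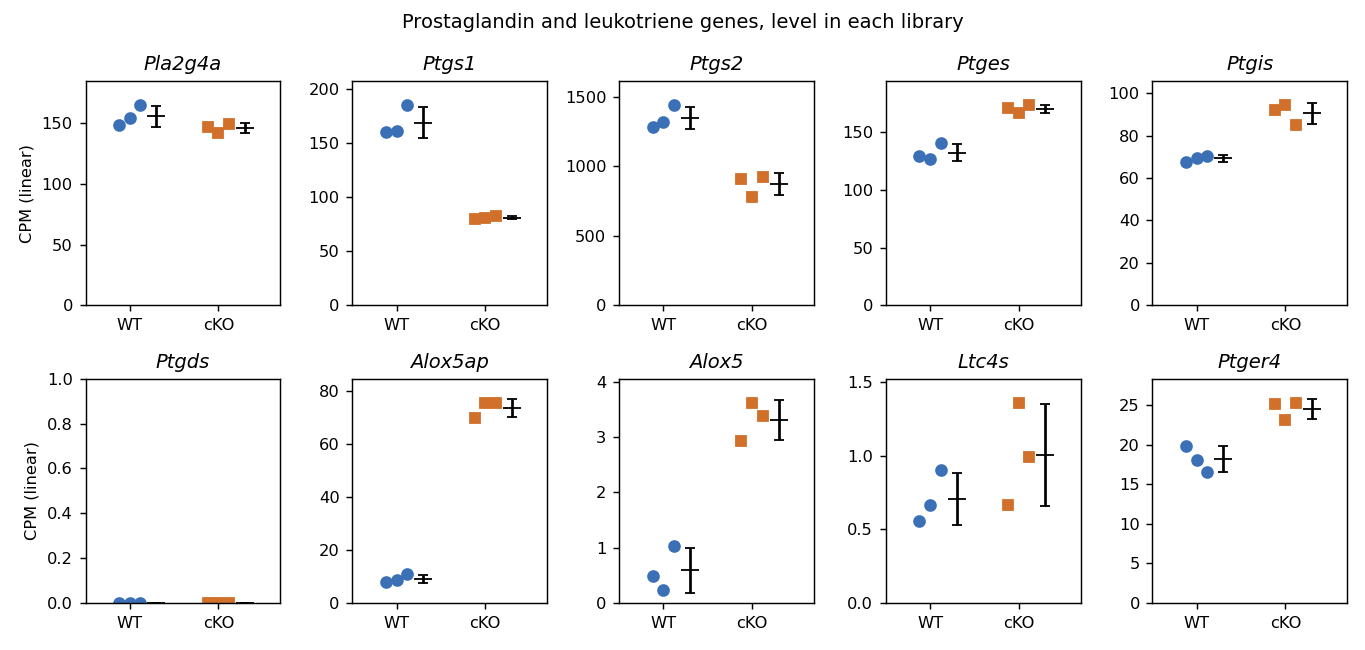
Level of each of the 10 genes in CPM (linear axis from 0, a scale of its own for each gene) in the 3 WT libraries (circles) and the 3 libraries labelled cKO (squares), with the mean and SD beside them. The groups overlap for *Pla2g4a* and *Ltc4s*, *Alox5ap* lies at 7.98 to 10.8 CPM in WT and 69.7 to 75.5 CPM in cKO, and *Ptgds* is at 0 throughout.

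The 250 bases before the start site are shown for both cyclooxygenase genes, which were lower together, and for *Alox5*, which was higher, so that the promoters of genes that moved apart can be read side by side. The sequences are RefSeq's, on build GRCm38.p6, a different build from that of the gene coordinates below, and 8 of the 10 genes had one. Capitals mark matches to the letters GAGGAA or to a GC box core (GGGCGG), read 5′ to 3′.
Ptgs1, chr2:36230176-36230425, plus strand: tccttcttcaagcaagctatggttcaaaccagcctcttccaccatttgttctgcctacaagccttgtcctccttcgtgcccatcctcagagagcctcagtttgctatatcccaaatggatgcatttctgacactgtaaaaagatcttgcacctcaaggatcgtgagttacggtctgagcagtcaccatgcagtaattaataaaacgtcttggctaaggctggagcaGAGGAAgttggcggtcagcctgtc
Ptgs2, chr1:150099781-150100030, plus strand: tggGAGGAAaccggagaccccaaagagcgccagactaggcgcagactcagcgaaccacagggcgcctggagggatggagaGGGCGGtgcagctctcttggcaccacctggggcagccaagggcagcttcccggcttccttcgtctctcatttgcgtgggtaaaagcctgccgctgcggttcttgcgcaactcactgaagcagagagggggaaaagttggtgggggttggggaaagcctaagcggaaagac
Alox5, chr6:116461179-116461428, minus strand: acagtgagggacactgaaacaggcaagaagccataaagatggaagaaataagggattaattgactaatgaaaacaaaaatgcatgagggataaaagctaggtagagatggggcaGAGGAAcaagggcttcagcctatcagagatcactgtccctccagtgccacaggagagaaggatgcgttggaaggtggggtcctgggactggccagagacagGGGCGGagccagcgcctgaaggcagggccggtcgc
On both strands, a TATA box (TATAAA), a GC box core (GGGCGG), the core of the cyclic AMP response element (TGACG), an E-box (CACGTG), the letters GAGGAA, an AP-1 site (TGANTCA) and the NF-kB motif were searched for, and no matches overlapped in these 3 windows. GAGGAA, the core letters of the site of the ETS family factor PU.1, was found in 23.3% of 32851 promoters. Of the 8 genes, 4 had it, namely *Ptgs1*, *Ptgs2*, *Ptges* and *Alox5*. GAGGAA lay 24 to 19 bases before the start in *Ptgs1* and 247 to 242 bases before it in *Ptgs2*. In *Alox5* it lay 136 to 131 bases before the start. The GC box core was found for *Ptgs2*, *Ptges*, *Alox5* and *Ptger4*, also 4 of the 8, and in 32.7% of all promoters. The *Ptgs2* window held 61.6% G and C, the *Alox5* window 52.8% and the *Ptgs1* window 48.0%, beside a median of 52.4% over all promoters. The TATA box letters were found for *Pla2g4a*, before the second of its listed starts, and in 12.4% of all promoters. The AP-1 and NF-kB motifs were found for *Ptgds* alone of the 8, and in 6.7% and 7.3% of all promoters. The response element core and the E-box, in 17.8% and 6.0% of all promoters, were not among the letters of these windows. Sites outside the 250 bases, or with letters that differ from those searched for, would not be found. *Ptgs1* and *Ptgs2*, which were lower, and *Ptges* and *Alox5*, which were higher, thus all held GAGGAA, and a match is only a description of the letters.

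Release of arachidonic acid starts with *Pla2g4a*, cytosolic phospholipase A2 alpha (chromosome 1, 149705369 to 149837041, minus strand, build mm39). Its level was 148.1, 154.1 and 164.9 CPM in WT and 146.6, 141.9 and 149.7 CPM in the libraries labelled cKO. The groups overlapped. The log2 fold change was -0.09 ± 0.0474 (SE) with a 95% interval from -0.19 to 0.01 and an adjusted p of 0.142 by edgeR's quasi-likelihood test. It passed with upper-quartile scaling, at -0.16 and an adjusted p of 0.00953, and without WT replicate 1, at -0.14 and 0.0462.

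*Ptgs1* encodes cyclooxygenase-1, the constitutive form (chromosome 2, 36120438 to 36142284, plus strand). It was at 160.3, 160.9 and 185.0 CPM in WT and at 79.8, 80.7 and 82.1 CPM in the libraries labelled cKO. All 3 cKO libraries lay far below the lowest WT library and within 3 CPM of each other. The mean fell from 168.8 ± 14.1 CPM to 80.8 ± 1.16 CPM (SD, n = 3 each). The log2 fold change was -1.06 ± 0.0548 (SE), a change of -52.1%, with a 95% interval from -1.18 to -0.95 and an edgeR adjusted p of 3.57e-11.

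*Ptgs2* encodes cyclooxygenase-2, the form induced by inflammatory stimuli (chromosome 1, 149975782 to 149983978, plus strand). Its level was 1287, 1320 and 1442 CPM in WT and 912.3, 780.6 and 920.5 CPM in the libraries labelled cKO. The groups did not overlap, and cKO replicate 2 was the lowest. The mean went from 1350 ± 81.9 CPM to 871.1 ± 78.5 CPM (SD, n = 3 each), a log2 fold change of -0.63 ± 0.0548 (SE) and -35.4%, with an edgeR adjusted p of 4.09e-08. The 95% interval ran from -0.75 to -0.52. Summed, both cyclooxygenases came to 1447, 1481 and 1627 CPM in WT and to 992.1, 861.3 and 1003 CPM in the libraries labelled cKO.

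Among the terminal synthases, *Ptges* encodes microsomal prostaglandin E synthase-1, which makes prostaglandin E2 downstream of cyclooxygenase-2 (chromosome 2, 30779483 to 30819875, minus strand). It stood at 129.3, 127.0 and 140.8 CPM in WT and at 170.7, 166.8 and 173.6 CPM in the libraries labelled cKO. The lowest cKO library was above the highest WT library. The log2 fold change was 0.36 ± 0.047 (SE), or 28.7%, with a 95% interval from 0.27 to 0.46 and an edgeR adjusted p of 5.89e-06.

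*Ptgis*, prostacyclin synthase (chromosome 2, 167033725 to 167082524, minus strand), was at 67.5, 69.6 and 70.6 CPM in WT and at 92.3, 94.4 and 84.9 CPM in the libraries labelled cKO. Here too the groups were apart. Its log2 fold change of 0.39 ± 0.0516 (SE), or 30.7%, was of about the size of that of *Ptges*, with a 95% interval from 0.28 to 0.50 and an edgeR adjusted p of 8.93e-06. *Ptgds*, lipocalin-type prostaglandin D synthase (chromosome 2, 25356721 to 25360058, minus strand), had 0 counts in all 6 libraries. In these cultures its transcript was therefore not detected at this depth, and no fold change was computed. Added up, the terminal synthases came to 196.8, 196.6 and 211.4 CPM in WT and to 263, 261.2 and 258.5 CPM in the libraries labelled cKO.

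In the leukotriene arm, *Alox5ap* encodes the 5-lipoxygenase activating protein, which presents arachidonic acid to the enzyme (chromosome 5, 149201577 to 149224963, plus strand). Its counts were 359, 428 and 421 in WT and 2931, 3002 and 3422 in the libraries labelled cKO, that is 7.98, 8.63 and 10.8 CPM against 69.7, 75.5 and 75.3 CPM. The lowest cKO library was above every WT library by several times. The fold change was 8.07, or 3.01 ± 0.0883 (SE) on the log2 scale, with a 95% interval from 2.83 to 3.20 and an edgeR adjusted p of 1.56e-14. The median of the 15 tested macrophage markers was also 3.01, with a range from 1.73 to 4.25, and the part of those cells in the *Alox5ap* difference was not tested. *Gm19719*, an antisense gene overlapping *Alox5ap*, had 45, 29 and 24 counts in WT and 367, 294 and 426 in the libraries labelled cKO. The strand setting of the counting is not given in the sources used here, so reads of these 2 genes cannot be told apart. *Ptgs1*, *Ptgis* and *Ltc4s* also overlap genes on the other strand, *Gm43621*, *1110018N20Rik* and *Gm26542*. These had at most 122, 29 and 33 counts in a library. *Ltc4s* itself had only 25 to 54 counts in a library, and the same limit applies to it. *Gm13400* overlaps *Ptges* on the same strand and had at most 19 counts in a library.

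*Alox5* encodes 5-lipoxygenase itself (chromosome 6, 116387038 to 116438139, minus strand). It had 22, 12 and 40 counts in WT and 123, 144 and 154 in the libraries labelled cKO, that is 0.489, 0.242 and 1.03 CPM against 2.92, 3.62 and 3.39 CPM. The groups did not overlap, and WT replicate 3 was the highest of its group. The log2 fold change was 2.53 ± 0.37 (SE), with a 95% interval from 1.75 to 3.31 and an edgeR adjusted p of 2.48e-05. Without WT replicate 3 it was 3.18, with an edgeR adjusted p of 1.55e-07.

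*Ltc4s*, leukotriene C4 synthase, which makes the first cysteinyl leukotriene (chromosome 11, 50127288 to 50129443, minus strand), had 25, 33 and 35 counts in WT and 28, 54 and 45 in the libraries labelled cKO. These were 0.555, 0.665 and 0.902 CPM against 0.665, 1.36 and 0.991 CPM, and the groups overlapped. The log2 fold change was 0.51 ± 0.4 (SE), with a 95% interval from -0.34 to 1.35 and an edgeR adjusted p of 0.351, so at this depth a fall, no change and a rise of more than 1 on the log2 scale all lay inside it. The 3 genes of this arm together came to 9.02, 9.53 and 12.8 CPM in WT and to 73.2, 80.5 and 79.7 CPM in the libraries labelled cKO, nearly all of it *Alox5ap*.

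*Ptger4* encodes EP4, a receptor for prostaglandin E2 that raises cyclic AMP (chromosome 15, 5236142 to 5273668, minus strand). Its level was 19.8, 18.1 and 16.6 CPM in WT and 25.2, 23.1 and 25.3 CPM in the libraries labelled cKO. All 3 cKO libraries were above WT. The log2 fold change was 0.43 ± 0.084 (SE), or 35.1%, with a 95% interval from 0.26 to 0.61 and an edgeR adjusted p of 0.000442. *Ttc33* overlaps it on the opposite strand and had 925 to 1310 counts in a library, beside 643 to 1149 for *Ptger4*. With the strand setting not given, reads of these 2 genes cannot be told apart where they overlap. The log2 fold change of *Ttc33* was 0.11 with an edgeR adjusted p of 0.286.

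Levels of different genes were compared as CPM per kilobase of the deposited gene length. In WT, *Ptgs2* came first at 295 ± 17.9 CPM per kilobase, followed by *Ptgs1* at 43.4 ± 3.62, *Ptges* at 33.7 ± 1.89, *Ptgis* at 27.0 ± 0.608 and *Pla2g4a* at 24.4 ± 1.33 (SD, n = 3). *Alox5ap* followed at 6.44 ± 1.06, *Ptger4* at 2.73 ± 0.247, *Ltc4s* at 0.698 ± 0.175 and *Alox5* at 0.143 ± 0.0983 CPM per kilobase, and no neighbours in this order overlapped. In the libraries labelled cKO, *Ptgs2* was again first at 190 ± 17.1 CPM per kilobase, but *Alox5ap* was second at 51.8 ± 2.34 and *Ptgs1* sixth at 20.8 ± 0.299. *Ptges* at 43.3 ± 0.87, *Ptgis* at 35.3 ± 1.95 and *Pla2g4a* at 22.9 ± 0.618 CPM per kilobase lay between those 2. *Ptger4* at 3.69 ± 0.185, *Ltc4s* at 0.991 ± 0.342 and *Alox5* at 0.806 ± 0.0866 CPM per kilobase closed the order, and only *Ltc4s* and *Alox5* overlapped as neighbours. *Alox5ap* thus stood below both cyclooxygenases in WT and above *Ptgs1* in cKO.

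Ratios of 2 genes within a library do not depend on scaling between libraries, and 4 were computed per gene length on the log2 scale. With 3 libraries against 3, the exact two-sided permutation test cannot go below 0.1, or 0.133 after adjustment over these 4 ratios. *Ptges* to *Ptgs2*, the coupled steps to prostaglandin E2, was -3.09, -3.16 and -3.14 in WT and -2.20, -2.01 and -2.19 in the libraries labelled cKO, a difference of 1.00 (exact p = 0.1). On a linear scale, *Ptges* had 0.114 of the level of *Ptgs2* in WT and 0.228 of it in cKO. *Ptgs2* to *Ptgs1*, the inducible to the constitutive form, was 2.77, 2.80 and 2.73 in WT and 3.28, 3.04 and 3.25 in cKO, a difference of 0.42 (exact p = 0.1). *Ptgs2* made up 87.2% ± 0.284 of both cyclooxygenases per length in WT and 90.1% ± 0.834 in cKO (SD, n = 3), so its share was higher although both genes were lower.

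*Ltc4s* to *Alox5ap* was -3.36, -3.21 and -3.10 in WT and -6.22, -5.31 and -5.76 in the libraries labelled cKO, a difference of -2.54 (exact p = 0.1). The groups were apart, although *Ltc4s* on its own did not pass the test. *Alox5ap* to *Alox5* was 5.56, 6.69 and 4.93 in WT and 6.11, 5.91 and 6.01 in cKO, with a difference of 0.28 (exact p = 0.7, the same after adjustment). These groups overlapped, since the WT values were spread over a wider range, and without WT replicate 3 the difference was -0.12.

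**Figure D2:**
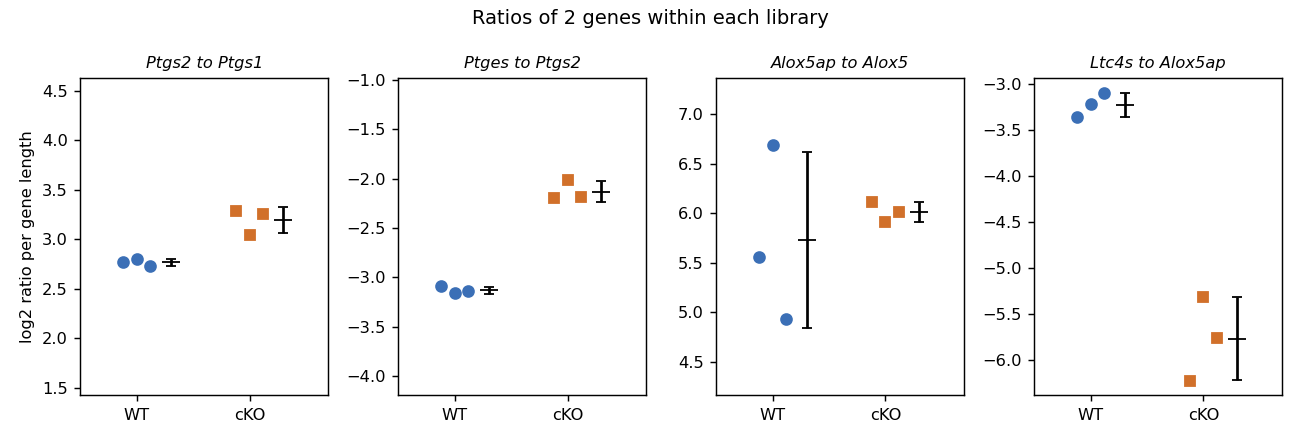
Log2 ratios of 2 genes per gene length within each library, for the 3 WT libraries (circles) and the 3 libraries labelled cKO (squares), with mean and SD. Heights on the log2 axis are the same except for *Ltc4s* to *Alox5ap*, whose panel spans slightly more. The groups are apart for *Ptgs2* to *Ptgs1*, *Ptges* to *Ptgs2* and *Ltc4s* to *Alox5ap*, and *Alox5ap* to *Alox5* overlaps.

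The 61 other genes of the pathway were read by role, and 44 of them could be tested. In the libraries labelled cKO, 17 of the 44 were higher and 9 lower, against 20.1% higher and 19.2% lower of all genes tested, so the share of lower genes was near that of the whole table. The median log2 fold change of the 44 was 0.14. The same shares stand behind the counts for each role below. All adjusted p-values that follow are from edgeR. Around *Pla2g4a*, 12 of 20 genes listed under arachidonate release could be tested, and 4 were higher and 1 lower. The list was broad, and not every enzyme in it frees arachidonic acid. *Pla2g7*, the phospholipase that inactivates platelet-activating factor, was higher at 120.9 ± 2.86 CPM against 21.6 ± 3.49 CPM, a log2 fold change of 2.48 (adjusted p = 9.05e-14). *Faah*, which hydrolyses the endocannabinoid anandamide, rose by 1.19 (adjusted p = 0.00391). The lysosomal *Pla2g15* rose by 0.52 (adjusted p = 3.81e-07) and *Daglb*, a diacylglycerol lipase, by 0.28 (adjusted p = 0.00529). The secreted *Pla2g12a* was lower, at -0.66 (adjusted p = 8.47e-07), and *Pla2g6*, a calcium-independent phospholipase, did not pass at 0.12 (adjusted p = 0.245).

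All 8 other prostanoid synthases could be tested, with 4 higher and 1 lower. *Hpgds*, the haematopoietic prostaglandin D synthase, was at 2.79 ± 0.657 CPM in WT and 30.7 ± 0.621 CPM in the libraries labelled cKO, a log2 fold change of 3.44 (adjusted p = 3.12e-13). The other prostaglandin D synthase gene, *Ptgds*, had no counts, so *Hpgds* was the only one of the pair with counts. *Tbxas1*, thromboxane synthase, rose by 2.43 (adjusted p = 1.24e-09). *Akr1c18*, a reductase that metabolises progesterone and prostaglandins, was lower at 0.718 ± 0.421 CPM against 9.35 ± 0.212 CPM, a log2 fold change of -3.68 (adjusted p = 3.47e-09). *Ptges2*, another prostaglandin E synthase, rose by 0.33 (adjusted p = 0.00163), near the 0.36 of *Ptges*, and *Prxl2b*, prostamide synthase, by 0.36 (adjusted p = 0.00922). *Cbr1*, at 0.12, and *Akr1b3*, at 0.07, did not pass.

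Of 8 other prostanoid receptors, 6 could be tested, and 3 were higher and 2 lower. *Ptger2*, which encodes EP2 and like *Ptger4* raises cyclic AMP, rose by 1.05 (adjusted p = 1.80e-05). *Ptgfr*, the prostaglandin F receptor, rose by 1.03 (adjusted p = 1.37e-09) and *Ptger1*, EP1, by 0.50 (adjusted p = 0.00113). *Tbxa2r*, the thromboxane receptor, was lower at -2.43 (adjusted p = 7.32e-07), and *Ptger3*, EP3, at -1.64 (adjusted p = 0.0311) on 4 to 38 counts. *Ptgir*, the prostacyclin receptor, had a log2 fold change of 0.32 and did not pass (adjusted p = 0.0574). Thromboxane synthase and its receptor thus differed in opposite directions.

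Of 6 genes of prostanoid transport and breakdown, all tested, 1 was higher and 2 were lower. *Slco2a1*, the prostaglandin transporter, was at 274.5 ± 12.8 CPM in WT and 233.3 ± 5.48 CPM in the libraries labelled cKO, a log2 fold change of -0.23 (adjusted p = 0.000262). *Zadh2*, a prostaglandin reductase, was at -0.25 (adjusted p = 0.000763) and *Ptgr2*, a related reductase, at 0.15 (adjusted p = 0.0413). *Hpgd*, which starts prostaglandin breakdown, had 3 to 35 counts and did not pass, at 1.40 (adjusted p = 0.0734).

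Beside the leukotriene genes above, 8 of 9 others of synthesis and breakdown could be tested, with 4 higher and 3 lower. *Dpep1*, a dipeptidase that turns leukotriene D4 into E4, was lower at 3.22 ± 0.201 CPM against 20.6 ± 1.82 CPM, a log2 fold change of -2.68 (adjusted p = 2.74e-12). *Dpep2*, its relative, had at most 34 counts and was higher at 2.23 (adjusted p = 0.00769). *Ggt5*, which converts leukotriene C4 to D4, rose by 1.96 (adjusted p = 1.24e-05), whereas *Ggt1*, which can do the same, had 14, 19 and 11 counts in WT and 0 in each library labelled cKO. Against a floor of 3 counts per library, *Ggt1* was at least 4.59-fold lower, and at least 2.3-fold lower against a floor of 6. *Abcc1*, an exporter of leukotriene C4, was at -0.23 (adjusted p = 0.000197), *Mgst3* at 0.42 (adjusted p = 0.00897) and *Mgst2* at 0.64 (adjusted p = 0.0446). *Lta4h*, which makes leukotriene B4, did not pass, at -0.10 (adjusted p = 0.162).

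Among 4 leukotriene receptors, 3 could be tested and 1 passed. *Cysltr1*, the X-linked receptor for cysteinyl leukotrienes, rose by 2.64 (adjusted p = 6.90e-08), from 0.929 ± 0.289 CPM to 5.87 ± 0.96 CPM. The leukotriene B4 receptors *Ltb4r1*, at -0.01, and *Ltb4r2*, at 0.22, did not pass on at most 36 counts. Of 6 other lipoxygenases, 1 could be tested, *Alox12*, which had a log2 fold change of 0.06 and did not pass (adjusted p = 0.817).

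**Figure D3:**
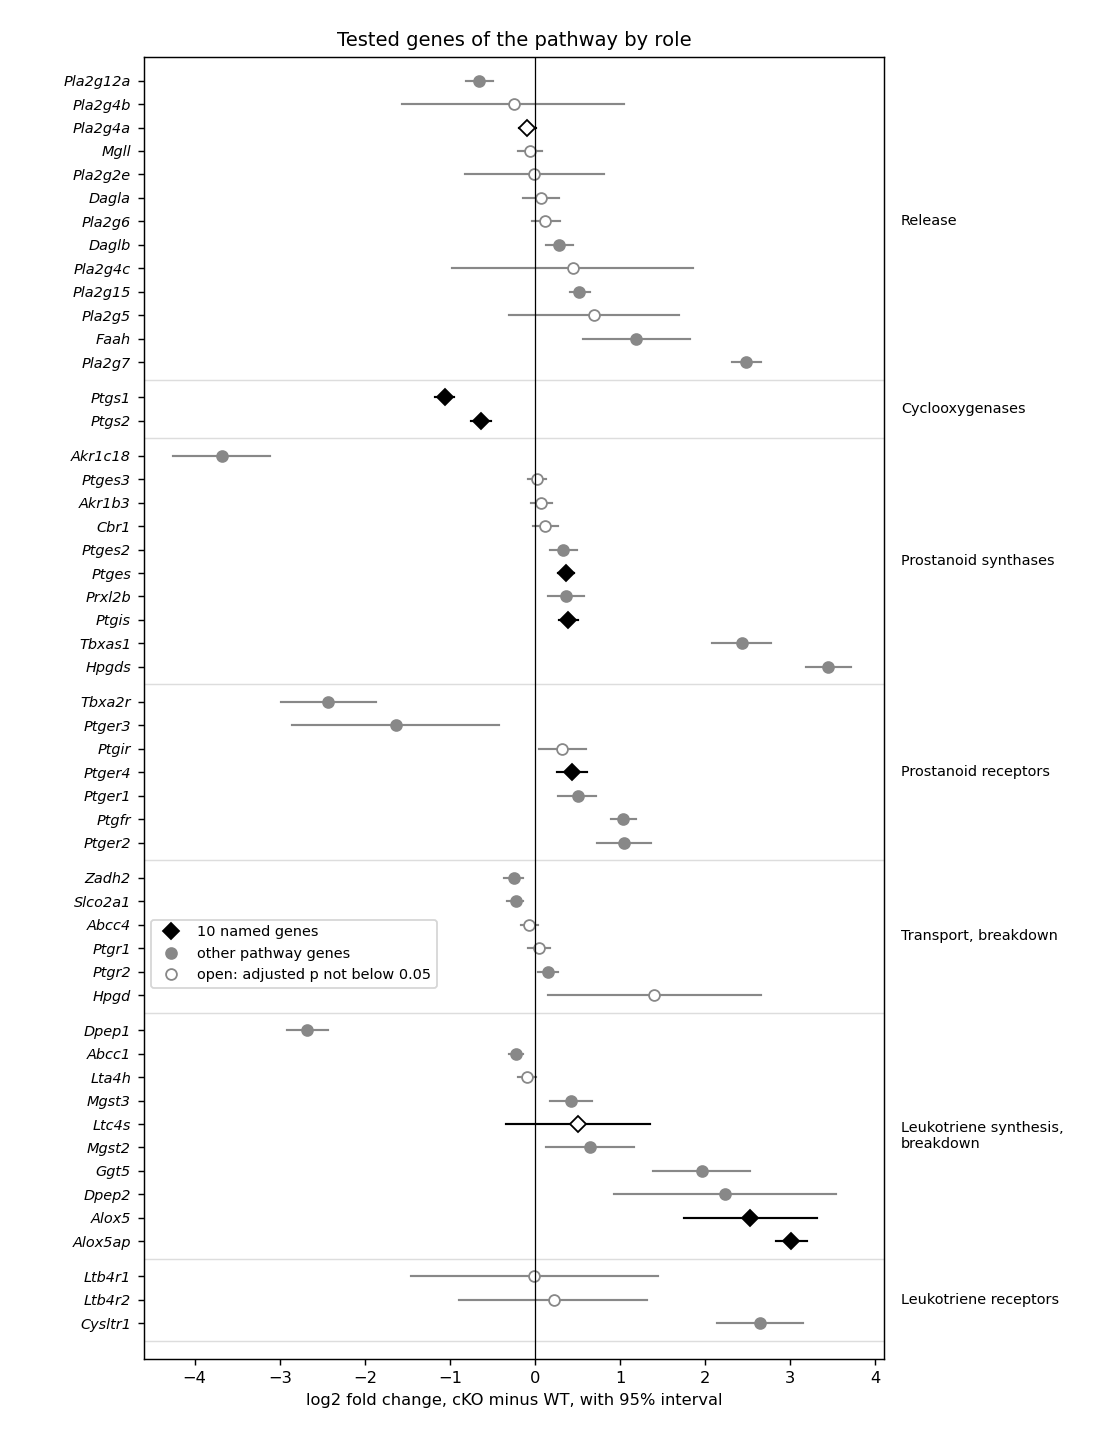
Log2 fold change (cKO minus WT) with 95% interval for the tested genes of the pathway by role, with diamonds for the 10 named genes and circles for the others, filled where the adjusted p was below 0.05. *Ggt1*, at 0 counts in cKO, and *Alox12* are not drawn. Both cyclooxygenases lie left of 0, and *Alox5ap*, *Alox5*, *Hpgds*, *Tbxas1*, *Pla2g7*, *Cysltr1* and *Dpep2* lie beyond 2.

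EP2 and EP4 act through cyclic AMP, and a list of 14 genes known to respond to it was read next. Any link of these 14 genes to prostaglandin E2 or its receptors was not tested. In the libraries labelled cKO, 7 of the 14 were higher and 2 lower, against 20.1% and 19.2% of all genes tested, and the median log2 fold change was 0.26. *Fos*, an immediate early gene that many other signals induce too, was at 13.1 ± 0.0523 CPM in WT and 64.1 ± 1.77 CPM in cKO, a log2 fold change of 2.29 (adjusted p = 5.13e-15). *Nr4a2*, a nuclear receptor, rose by 0.92 (adjusted p = 8.91e-09) and *Gem*, a small GTPase, by 0.83 (adjusted p = 1.22e-05). *Rgs2*, a regulator of G protein signalling, rose by 0.63 (adjusted p = 4.06e-06) and *Pde4b*, a phosphodiesterase of cyclic AMP, by 0.50 (adjusted p = 5.53e-07). *Areg*, amphiregulin, was lower, at -2.93 (adjusted p = 8.07e-05), and so went the other way. The other lower gene was *Sik1*, a kinase, at -0.22 (adjusted p = 0.0333) with overlapping groups, which was named after its values were seen. Without WT replicate 2, cKO replicate 2 or cKO replicate 3, the list had 1 lower gene.

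The cell type markers were set beside these genes, since synthases and receptors differ between cell types. The 15 tested macrophage markers were higher, as were *Alox5ap*, *Alox5* and *Hpgds*. Mast cells, a classical source of leukotriene C4, were represented by 8 markers of which 4, *Cpa3*, *Mcpt4*, *Tpsb2* and *Fcer1a*, had 0 counts in every library, and the list summed to 0.242 to 0.555 CPM in WT and to 0 to 0.0881 CPM in cKO. Neutrophil markers summed to 4.59 to 7.86 CPM in WT and 10.1 to 11.2 CPM in cKO, with *S100a9* and *Retnlg* at 0 counts everywhere. Megakaryocyte markers summed to 36.3 to 40.3 CPM and 173 to 195.8 CPM, with *Gp9* and *Gp1bb* at 0 counts everywhere. Smooth muscle markers, in contrast, were lower in 4 of 5 genes, with sums of 1142 to 1331 CPM in WT and 492.5 to 552.5 CPM in cKO. Endothelial markers were lower in 4 and higher in 2 of 6 genes. Chondrocyte markers were higher in 4 and lower in 1 of 5 tested genes. Of 5 tested osteoclast markers, 2 were higher and 2 lower. The osteoblast list went both ways, with 3 of 5 tested markers lower and 2 higher. Its sum, 5571 to 6207 CPM in WT and 3609 to 3890 CPM in cKO, was nearly all *Col1a1* (log2 fold change -0.67), while *Ibsp*, at 2.01, and *Alpl*, at 0.68, were higher. *Ptgs1* and *Ptgs2* were lower as well, and the part of any of these cell types in the differences was not tested.

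**Figure D4:**
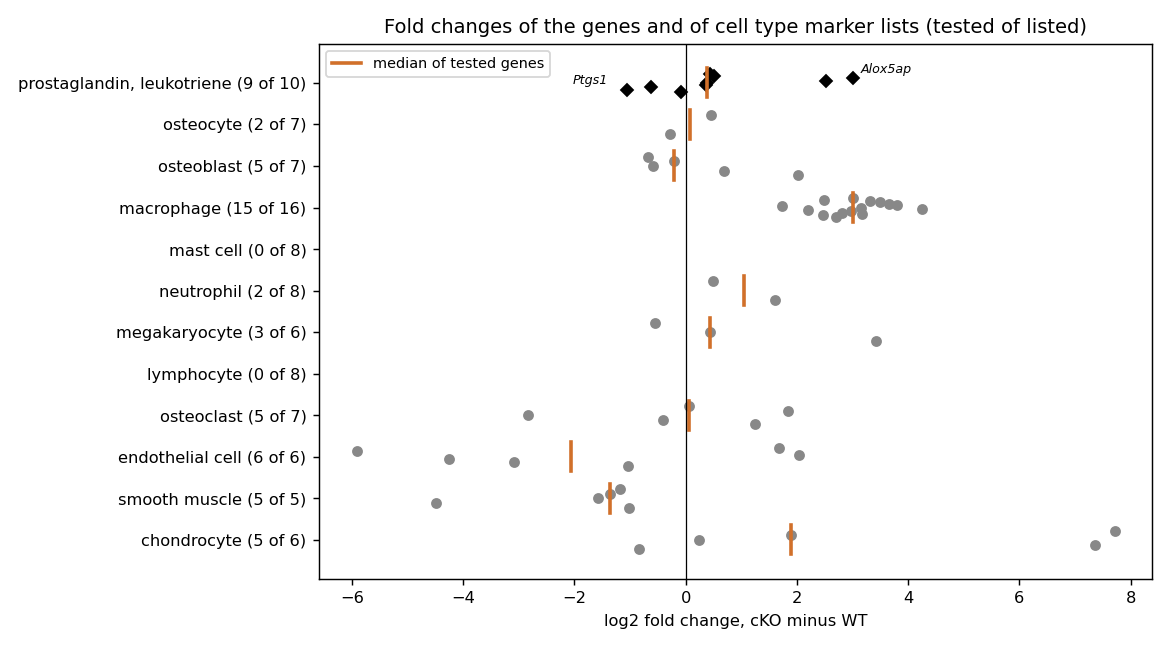
Log2 fold change (cKO minus WT) of the tested genes among the 10 named genes (diamonds) and in 11 lists of cell type markers (circles), with the median of each list as a bar. The macrophage markers lie from 1.73 to 4.25 with a median of 3.01, beside *Alox5ap* at 3.01 and *Alox5* at 2.53, and no mast cell or lymphocyte marker could be tested.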

How the data were processed

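The authors made directional libraries, sequenced them as 150 bp read pairs, trimmed and aligned the reads (HISAT2 2.0.5, mm39) and counted them per gene with featureCounts (1.55.0-p3 per the labels, a different release in the methods, which also name RSEM). They deposited raw counts, not normalized, and a gene length in bases. Low counts were even more often than odd, which counting both mates of a pair would give, and the floors cover counting error only. The 95% intervals of fold changes come from the fit and include the spread between libraries.

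From the counts, genes were filtered with filterByExpr, scaled by TMM and tested with edgeR 4.0.16 (glmQLFit, glmQLFTest) in R 4.3.3, with genotype as the only term and Benjamini-Hochberg adjustment over 17146 genes. The procedure was tested on simulated data. Same-numbered replicates did not deviate together (correlations of -0.0055, 0.00228 and -0.0103), so no pairing was used.

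Named were *Gsdmd*, the 10 genes, every listed gene that passed with a log2 fold change of at least 1 in size, up to 4 others per list by smallest p-value, markers at 3 counts or fewer in every library, *Xist* and *Ddx3y*. Other osteocyte and osteoblast markers were named after their values were seen. The genes and lists were chosen with earlier results of these data known. Alternatives were DESeq2 1.42.0, limma-voom (limma 3.58.1), robust estimation, other scalings and filters, halved counts, a fold limit, a replicate block and each library left out. *Zadh2* was matched through a RefSeq synonym, and of 2 gene models named *Dpep2* the one with more counts was used. Promoters are from RefSeq (GRCm38.p6). The values of a marker gene are not reported here.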

Additional observations from a re-analysis of the deposited data

How the results depend on the processing

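Over 16 alternative settings, 142 of 144 fold changes of the 9 tested genes kept their direction and their side of the threshold, and the other 2 were those of *Pla2g4a* given above. The number of these genes that were lower went from 2 to 3 with upper-quartile scaling and without WT replicate 1. With a log2 fold change of at least 1 in size required as well, 2 were higher and 1 lower, the other pathway genes gave 9 higher and 5 lower, the cyclic AMP list 1 higher and 1 lower, and all genes 1124 higher and 796 lower. The cyclic AMP list had 1 lower gene, not 2, with library size only and with at least 10 counts in every library, 3 with DESeq2 and with upper-quartile scaling, and from 1 to 2 with each library left out (1 without WT replicate 2, cKO replicate 2 or cKO replicate 3). The ratio of *Alox5ap* to *Alox5* ranged from -0.12 without WT replicate 3 to 0.76 over the libraries left out, and the cause was not tested. With the replicate number as a block, 5 of the 9 genes were higher and 2 lower, the pathway gave 16 and 8, the cyclic AMP list 7 and 2, and all genes 3298 and 3098. Same-numbered samples did not deviate together, and the labels give no link between them beyond the number. Whether they shared a batch is not stated. Upper-quartile scaling gave 2799 higher and 4294 lower genes over the table, and moved the median log2 fold change of all genes by -0.069. *Ltc4s* and *Alox5* rested on at most 154 counts in a library, which limits their precision.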

Other observations

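*Pla2g4a* and *Ptgs2*, the phospholipase and the cyclooxygenase that act in sequence, lie 138.7 kb apart on chromosome 1 of mm39. Their log2 fold changes were -0.09 and -0.63, and the first did not pass the test.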
